A study of Mus musculus with 2 samples.

Results

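The 10 genes described here belong to the NF-kB pathway and were chosen by name. They encode subunits of the transcription factor (Nfkb1, Nfkb2 and Relb), proteins that feed back on it (Nfkbia, Nfkbiz and Tnfaip3) and genes it is known to induce (Tnfaip2, Tnf, Icam1 and Bcl2a1b). All 10 were found among the 31253 genes of the tables. Their levels are given in cell classes gated by marker genes, in each of 2 single-cell RNA libraries.

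NF-kB dimers are held in the cytoplasm by IkB proteins until kinases downstream of TNF, interleukin-1 and Toll-like receptors mark the IkB for destruction. The freed dimers induce inflammatory genes together with their own inhibitors, among them Nfkbia and Tnfaip3. A separate, non-canonical route processes the Nfkb2 product to a partner of RelB and is known for its part in maturing dendritic cells, while in tumour neutrophils and macrophages the pathway is known for driving cytokines and adhesion molecules.

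The libraries held live CD45+ cells sorted from tumours of MB49, a mouse bladder cancer line, after enzymatic digestion at 37 °C, and were captured with BD Rhapsody, a microwell system that reads mRNA from its 3′ end and counts unique molecular identifiers (UMIs). The series asked how Lcn2, the gene for an iron-sequestering granule protein of neutrophils, matters for their diversity and function. There was 1 library labelled Lcn2-ko, from chimeric mice given Lcn2-KO marrow, and 1 labelled wt, from chimeric mice given WT marrow. In both, marrow of male donors had been put into lethally irradiated female hosts, the labels list female sex, and neither age, strain nor the number of animals is given. The genotype is that of the marrow, so it does not cover MB49 cells or the host cells that outlast irradiation. With 1 library per label no test between genotypes was possible, and every interval below covers counting error only.

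The Lcn2-ko-labelled library held 7788 barcodes, 40959725 UMIs and a median of 3570 UMIs per barcode, and the wt library held 7974, 42069099 and 3574.5. After filters 7242 (Lcn2-ko) and 7404 cells (wt) were kept, and 4 barcodes occurred in both libraries. Lcn2 itself was present in neutrophils of both, with 78 UMIs in the Lcn2-ko-labelled library and 176 UMIs in wt, or 180 (Lcn2-ko) and 203 CPM (wt) (the UMIs of a gene scaled to a class total of 1e+06). In the other 11 compared classes its CPM was higher with the Lcn2-ko label, as in monocytes, with 16 UMIs (Lcn2-ko) and 2 UMIs (wt), and in tumour cells, with 321 UMIs (Lcn2-ko) and 243 UMIs (wt), a log2 ratio of 0.57 (0.32 to 0.82). Reads from the 3′ end need not lie in the deleted part of the gene, so these UMIs do not check the label, and every direction below is that of the libraries as labelled. Each class is named for the cell type that its markers define, as cells like that type, and in every class all markers stood at least 2-fold above the other classes, which the gating favours. The 12 classes with at least 50 cells per library were compared. They held 54 to 1199 cells in the Lcn2-ko-labelled library and 66 to 1342 in wt, neutrophils being 312 (Lcn2-ko) and 533 cells (wt). B cells, with 34 (Lcn2-ko) and 42 cells (wt), were given levels only. Cells without Ptprc (the gene for CD45) that carried keratin or collagen genes, called tumour cells below, made up 16.6% (Lcn2-ko) and 18.1% (wt) of the kept cells in spite of the CD45+ sort.

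Where RefSeq gave a promoter (250 bases before to 50 after the start, build GRCm38.p6), it was searched on both strands for the kappaB consensus, the sequence that NF-kB dimers bind. The table held 7 of the 10 genes, all but Nfkb1, Nfkbiz and Relb. Several windows were listed for Nfkb2 (3) and Tnfaip3 (2). A match in any window was found for 3 of the 7 genes (42.9%), against 1388 of 27018 genes with a promoter (5.14%). The matching genes are feedback and subunit genes, and they are shown with the promoter of Tnf, which had most of the differences between the libraries. For Nfkb2 and Tnfaip3 the window with most matches is shown. Capitals mark matches.
Nfkbia, chr12:55492598-55492897, minus strand: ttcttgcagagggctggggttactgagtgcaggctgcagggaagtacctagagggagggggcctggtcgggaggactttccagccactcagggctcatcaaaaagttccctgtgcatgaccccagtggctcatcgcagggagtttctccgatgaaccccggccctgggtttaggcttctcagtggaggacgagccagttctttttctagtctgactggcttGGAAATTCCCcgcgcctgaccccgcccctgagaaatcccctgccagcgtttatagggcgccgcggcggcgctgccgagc
Tnfaip3, chr10:19015361-19015660, minus strand: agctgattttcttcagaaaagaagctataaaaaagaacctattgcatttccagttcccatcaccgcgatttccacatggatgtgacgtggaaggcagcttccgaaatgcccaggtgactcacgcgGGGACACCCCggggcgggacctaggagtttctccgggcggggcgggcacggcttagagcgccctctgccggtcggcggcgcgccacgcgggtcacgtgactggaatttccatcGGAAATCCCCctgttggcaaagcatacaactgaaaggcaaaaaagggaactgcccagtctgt
Nfkb2, chr19:46304487-46304786, plus strand: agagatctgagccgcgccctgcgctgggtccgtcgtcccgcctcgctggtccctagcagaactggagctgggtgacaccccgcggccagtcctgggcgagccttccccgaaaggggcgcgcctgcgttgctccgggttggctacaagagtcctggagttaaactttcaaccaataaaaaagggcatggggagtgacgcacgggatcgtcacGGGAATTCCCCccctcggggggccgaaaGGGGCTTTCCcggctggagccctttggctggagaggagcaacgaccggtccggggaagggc
Tnf, chr17:35201958-35202257, minus strand: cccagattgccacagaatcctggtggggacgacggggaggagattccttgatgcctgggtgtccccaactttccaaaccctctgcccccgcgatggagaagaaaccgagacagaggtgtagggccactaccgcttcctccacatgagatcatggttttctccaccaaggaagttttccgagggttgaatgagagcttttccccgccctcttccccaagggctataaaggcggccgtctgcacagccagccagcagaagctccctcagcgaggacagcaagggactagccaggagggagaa
Nfkbia had 1 match, GGAAATTCCC, beginning 29 bases before the start. Tnfaip3 had GGGACACCCC beginning 125 bases and GGAAATCCCC beginning 12 bases before it. Nfkb2 had a pair of overlapping matches beginning 39 and 38 bases before the start and GGGGCTTTCC beginning 11 bases before it. Its other windows, which overlap each other, both held 1 same GGGACTTTCC and 1 of them also GGAATGTCCC, and the other Tnfaip3 window had 0 matches. In the windows of Tnf, Tnfaip2, Icam1 and Bcl2a1b these letters did not occur, which says nothing of sites elsewhere. A match is a stretch of letters and not a measured binding site.

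Across classes each of the 10 genes had its highest mean level in neutrophils or in mature dendritic cells, and Tnfaip2 and Bcl2a1b stood high in both. In neutrophils 7 of the 10 stood at least 2-fold above the median of the other compared classes in both libraries, namely Nfkbia, Nfkbiz, Tnfaip3, Tnfaip2, Tnf, Icam1 and Bcl2a1b. Of 9648 genes, 10.9% did so in neutrophils. In mature dendritic cells, the migratory state marked by Ccr7 and Fscn1, the count was 5 of 10, against 9.61% of genes, and covered the 3 subunit genes, Tnfaip2 and Bcl2a1b. Macrophages had 3 of the 10 (10.4% of genes), and monocytes, cDC1, cDC2 and mast cells or basophils had 2 each (9.17%, 7.91%, 7.39% and 8.75% of genes). None of the 10 reached that limit in CD8 T, CD4 T, regulatory T, NK or tumour cells (8.58%, 9.42%, 10%, 8.03% and 20.2% of genes). For all 10 genes the class with the highest mean level was the same under every processing alternative tried. The heat map shows these levels.

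**Figure D1:**
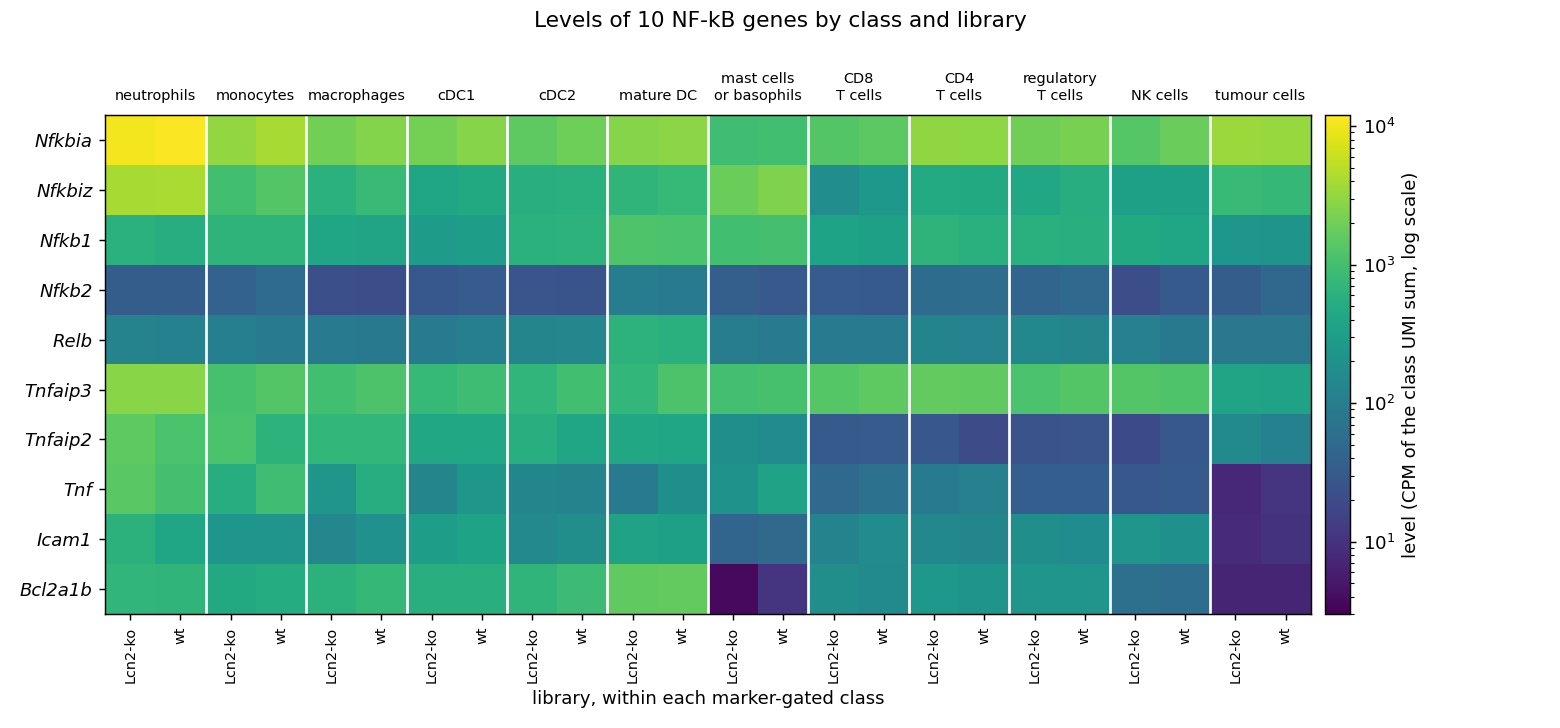
Level of each of the 10 genes (rows) in each compared class and library (columns, Lcn2-ko left of wt), as CPM of the class UMI sum on a log colour scale. Nfkbia and Nfkbiz are brightest in neutrophils, at 10364 (Lcn2-ko) and 11247 CPM (wt) and at 4020 (Lcn2-ko) and 4244 CPM (wt), and the row of Relb stands out in mature DC only, at 649 (Lcn2-ko) and 574 CPM (wt).

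Among the subunit genes, Relb (chr7:19606217-19629438, minus strand) was the one most tied to a single class. Its product is the RelB subunit of the non-canonical route. Mature dendritic cells held 649 CPM in the Lcn2-ko-labelled library and 574 CPM in wt, 4.46-fold above the next class by mean, regulatory T cells, with 142 (Lcn2-ko) and 132 CPM (wt). The other 11 classes lay in a narrow band, down to 83.8 (Lcn2-ko) and 83.9 CPM (wt) in tumour cells, and most neighbours in that band overlapped. In mature dendritic cells 73 of 78 (Lcn2-ko) and 62 of 70 cells (wt) held a Relb UMI, that is 93.6% (Lcn2-ko) and 88.6% (wt), against 25.3% (Lcn2-ko) and 23.9% (wt) of CD8 T cells.

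Nfkb2 (chr19:46304320-46312385, plus strand), which encodes p100, the precursor of p52, was also highest in mature dendritic cells. It stood there at 96.2 (Lcn2-ko) and 88.3 CPM (wt) in the Lcn2-ko-labelled and wt libraries, from 39 (Lcn2-ko) and 34 UMIs (wt). CD4 T cells followed with 56.4 (Lcn2-ko) and 57.4 CPM (wt), and macrophages were lowest with 22.4 (Lcn2-ko) and 22.1 CPM (wt). From neutrophils down to cDC2 in that order neighbouring classes overlapped, so their order is not resolved.

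Nfkb1 (chr3:135584655-135691547, minus strand) encodes p105, the precursor of p50. Mature dendritic cells held 1218 (Lcn2-ko) and 1132 CPM (wt), mast cells or basophils 980 (Lcn2-ko) and 1025 CPM (wt), and monocytes 650 (Lcn2-ko) and 670 CPM (wt). Tumour cells were lowest, with 232 (Lcn2-ko) and 217 CPM (wt). Neutrophils, at 608 (Lcn2-ko) and 526 CPM (wt), lay in the middle and overlapped CD4 T cells and regulatory T cells. None of the 3 subunit genes reached the 2-fold limit in neutrophils, where all 7 other genes did.

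Among the feedback genes, Nfkbia (chr12:55489410-55492647, minus strand) encodes IkB-alpha, which pulls NF-kB out of the nucleus. Neutrophils held 10364 CPM in the Lcn2-ko-labelled library and 11247 CPM in wt, 3.05-fold above the next class by mean, and 95.5% (Lcn2-ko) and 97.2% (wt) of them held at least 1 UMI. Monocytes had 3094 (Lcn2-ko) and 3992 CPM (wt) and overlapped tumour cells, which had 3489 (Lcn2-ko) and 3289 CPM (wt). Mast cells or basophils were lowest, with 958 (Lcn2-ko) and 986 CPM (wt).

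Nfkbiz (chr16:55811375-55838899, minus strand) encodes IkB-zeta, a nuclear member of the IkB family that tunes a subset of NF-kB targets. It was at 4020 (Lcn2-ko) and 4244 CPM (wt) in neutrophils and at 1886 (Lcn2-ko) and 2416 CPM (wt) in mast cells or basophils. Monocytes came next with 980 (Lcn2-ko) and 1285 CPM (wt), and CD8 T cells last with 173 (Lcn2-ko) and 250 CPM (wt). The mast cell gate also held 5683 (Lcn2-ko) and 5846 CPM (wt) of the neutrophil marker list, which includes Hdc, a gene that mast cells and basophils use themselves. Those cells differed from neutrophils in Bcl2a1b, which had only 1 (Lcn2-ko) and 4 UMIs (wt) there.

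Tnfaip3 (chr10:19000910-19015657, minus strand) encodes A20, the ubiquitin-editing enzyme that shuts down TNF receptor signals. It was spread more evenly than Nfkbia or Nfkbiz. Neutrophils held 2719 (Lcn2-ko) and 2789 CPM (wt), and the next places went to lymphocytes, with 1634 (Lcn2-ko) and 1562 CPM (wt) in CD4 T cells and 1355 (Lcn2-ko) and 1512 CPM (wt) in CD8 T cells. From NK cells down to cDC2 in that order each class overlapped the next. Tumour cells stood apart at the bottom, with 382 (Lcn2-ko) and 356 CPM (wt).

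Among the target genes, Tnf (chr17:35199381-35202007, minus strand) encodes tumour necrosis factor. Neutrophils held 1440 CPM in the Lcn2-ko-labelled library and 1025 CPM in wt. Monocytes held 527 (Lcn2-ko) and 937 CPM (wt), macrophages 242 (Lcn2-ko) and 529 CPM (wt), mast cells or basophils 212 (Lcn2-ko) and 359 CPM (wt), and cDC1, the cross-presenting dendritic cells, 129 (Lcn2-ko) and 242 CPM (wt). In the Lcn2-ko-labelled library the gap between neutrophils and monocytes was wide, while in wt their levels lay close together. NK cells, at 29.6 (Lcn2-ko) and 31.3 CPM (wt), and tumour cells, at 7.49 (Lcn2-ko) and 10.4 CPM (wt), were lowest. A Tnf UMI was found in 40.1% (Lcn2-ko) and 43.2% (wt) of neutrophils and in 5.67% (Lcn2-ko) and 8.05% (wt) of tumour cells. Tumour cells had median depths of 8372 (Lcn2-ko) and 8265.5 UMIs (wt) and neutrophils 1263 (Lcn2-ko) and 1389 (wt). With each cell thinned to 800 UMIs the shares were 35.2% (Lcn2-ko) and 34.6% (wt) in neutrophils, against 0.501% (Lcn2-ko) and 1.05% (wt) in tumour cells, where free RNA is a possible source of such UMIs.

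Icam1 (chr9:21015985-21028817, plus strand) encodes the adhesion receptor ICAM-1, a ligand of leukocyte integrins. Neutrophils held 627 (Lcn2-ko) and 388 CPM (wt), mature dendritic cells 360 (Lcn2-ko) and 332 CPM (wt) and cDC1 299 (Lcn2-ko) and 366 CPM (wt). Mast cells or basophils, at 44.5 (Lcn2-ko) and 52.0 CPM (wt), and tumour cells, at 8.21 (Lcn2-ko) and 10.2 CPM (wt), were lowest. Icam1 UMIs lay in 24.7% (Lcn2-ko) and 26.3% (wt) of neutrophils, and the 10% of cells with most of them held 77.9% (Lcn2-ko) and 68.8% (wt) of its neutrophil UMIs.

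Tnfaip2 (chr12:111442469-111455018, plus strand), a TNF-induced gene whose product is known from work on membrane nanotubes, was highest in myeloid classes here. It was at 1524 (Lcn2-ko) and 1133 CPM (wt) in neutrophils, 1148 (Lcn2-ko) and 642 CPM (wt) in monocytes and 727 CPM in macrophages of both libraries. Mast cells or basophils, at 186 (Lcn2-ko) and 162 CPM (wt), were followed by tumour cells, at 151 (Lcn2-ko) and 115 CPM (wt). The 4 lymphocyte classes lay between 19.2 and 33.0 CPM. Neutrophils and monocytes overlapped between the libraries, so their order is not fixed.

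Bcl2a1b (chr9:89199209-89207827, plus strand) encodes A1, a survival protein of the BCL-2 family. Mature dendritic cells held 1569 (Lcn2-ko) and 1634 CPM (wt), 2.06-fold above the next class by mean, cDC2, the dendritic cells that mainly serve CD4 T cells, with 679 (Lcn2-ko) and 877 CPM (wt). Neutrophils held 705 (Lcn2-ko) and 690 CPM (wt) and overlapped cDC2. Mast cells or basophils, at 3.71 (Lcn2-ko) and 11.0 CPM (wt), and tumour cells, at 7.04 (Lcn2-ko) and 6.99 CPM (wt), were lowest. Transcripts of Bcl2a1b were 98.2% identical to Bcl2a1a and 99.1% to Bcl2a1d over 817 bases, so the split of UMIs among these copies is uncertain. Bcl2a1d was also highest in mature dendritic cells, at 1024 (Lcn2-ko) and 958 CPM (wt), but Bcl2a1a was low in all T cell classes, at 3.08 to 7.97 CPM, where Bcl2a1b stood at 155 to 247 CPM.

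In B cells, with few UMIs, Nfkbia stood at 1857 (Lcn2-ko) and 1703 CPM (wt) from 98 (Lcn2-ko) and 112 UMIs (wt), and the other 9 genes had 1 to 33 UMIs per library.

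Between the libraries most of the 10 genes differed little, and Tnf had most of the larger differences, which depended on the settings. Of 116 measured pairs of a gene and a class, 2 were at least 1.5-fold higher in the Lcn2-ko-labelled library, where 6.22% of all 69738 pairs of a gene and a class were. At least 1.5-fold lower were 7 of the 116, against 6.45% of all pairs. Measured here means at least 20 CPM in either library and at least 20 UMIs over both, and 1.5-fold is a size and not a test. A gene near that limit can thus be measured through 1 library only, which favours large ratios. Tnfaip2 in NK cells, at 19.2 (Lcn2-ko) and 29.5 CPM (wt), is such a lower pair. The count of lower pairs lies near the share over all genes and that of higher pairs below it. The median log2 ratio over the 116 pairs, Lcn2-ko over wt, was -0.04. Of the 7 lower pairs 5 were Tnf, and each of those 5 was lost under at least 1 alternative. Tnfaip2 in monocytes (higher) and Tnfaip3 in mature dendritic cells (lower) stayed past 1.5-fold under every alternative at that limit. The count of higher pairs moved with the settings, to 7 with cells thinned to 800 UMIs, 4 with 1 more marker required and 5 with Leiden clusters. The higher pairs added by thinning were Relb in cDC2, mature dendritic cells and NK cells, Icam1 in NK cells and Bcl2a1b in CD8 T cells. The lower pairs it added were Bcl2a1b in macrophages (-0.69) and Nfkbiz in mast cells or basophils (-0.71) and CD8 T cells (-0.63). The plot of ratios by gene and class shows each pair.

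**Figure D2:**
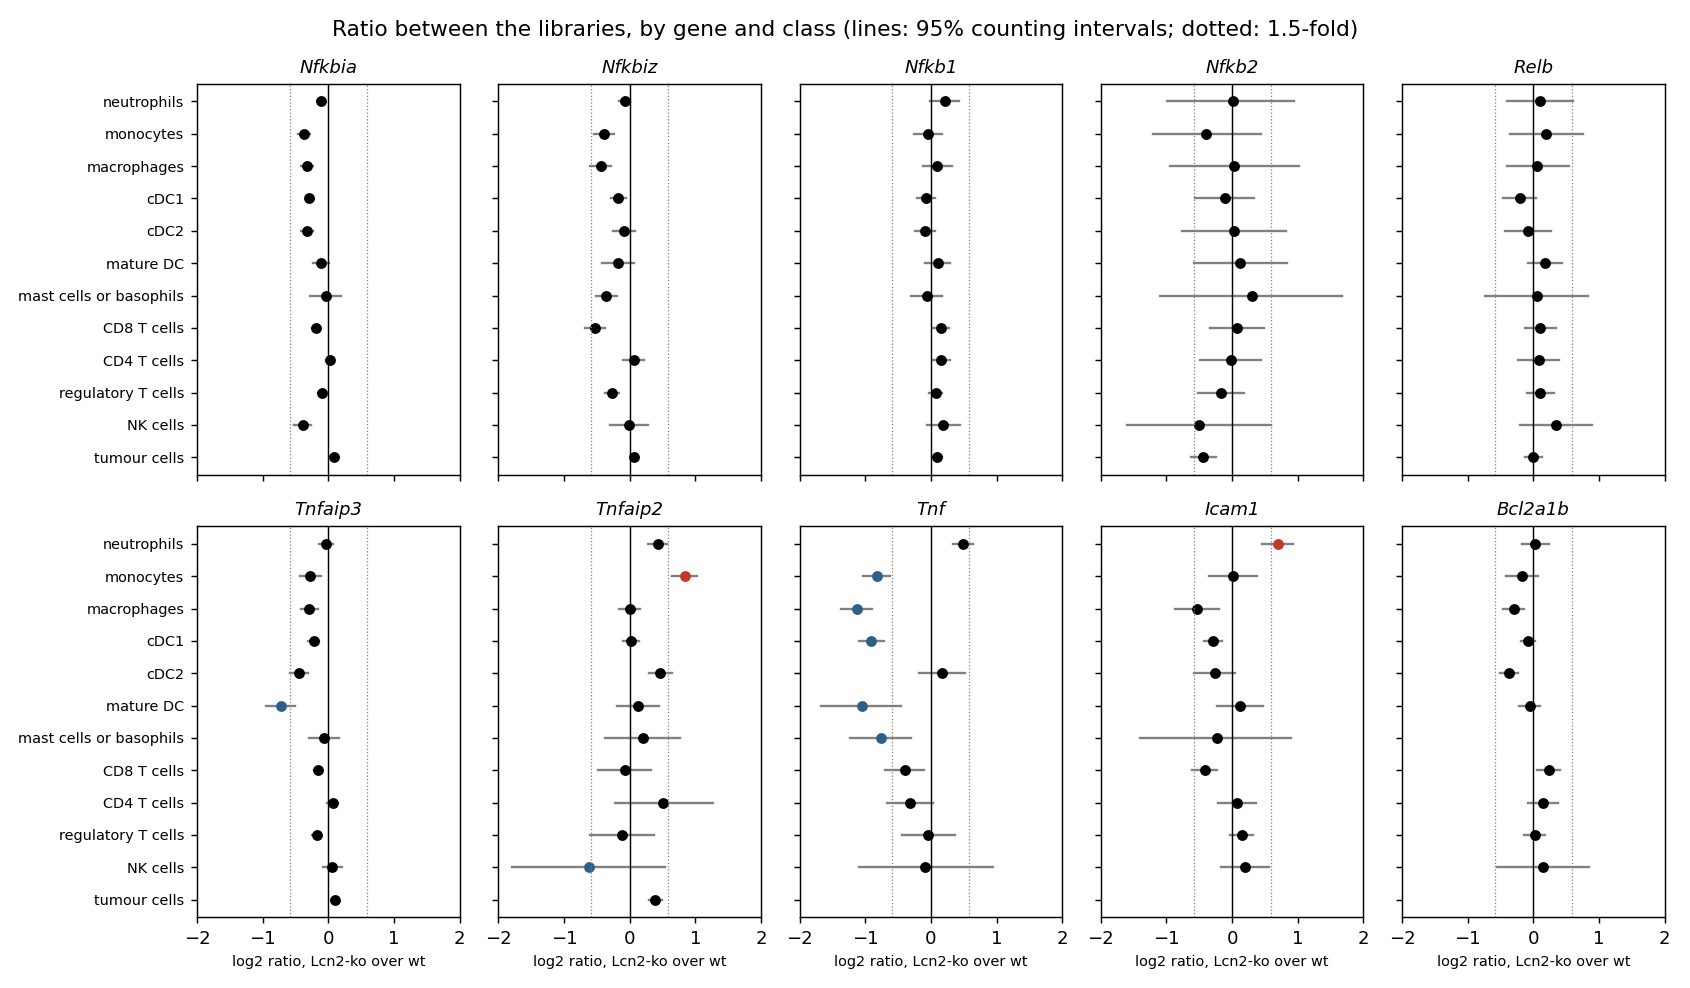
Log2 ratio of the Lcn2-ko-labelled library over wt (x axis) for each of the 10 genes in each compared class (y axis), with 95% counting intervals as lines. Points in red are at least 1.5-fold higher, points in blue at least 1.5-fold lower, and pairs that were not measured have no point. The Tnf panel spans the widest range, from -1.13 in macrophages to 0.49 in neutrophils.

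Outside neutrophils, Tnf was at least 1.5-fold lower with the Lcn2-ko label in 5 of the 6 other myeloid classes. The share of all genes lower in as many of these classes was not counted. Class by class, 8.78% of genes were lower in monocytes, 7.57% in macrophages, 2.85% in cDC1 and 6.15% in cDC2. The shares were 12.3% in mature dendritic cells and 14.8% in mast cells or basophils. In macrophages 248 UMIs in the Lcn2-ko-labelled library against 408 in wt gave a log2 ratio of -1.13 (-1.37 to -0.90). In monocytes 387 UMIs against 436 in wt gave -0.83 (-1.03 to -0.63), and in cDC1 300 UMIs against 855 in wt gave -0.91 (-1.10 to -0.72). Mature dendritic cells, with 36 UMIs against 71 in wt, had -1.05 (-1.68 to -0.46), and mast cells or basophils, with 57 UMIs against 131 in wt, had -0.76 (-1.24 to -0.30). cDC2, the other dendritic cell class, stood on neither side, at 136 (Lcn2-ko) and 121 CPM (wt) and 0.17 (-0.18 to 0.52), 1 cell of the Lcn2-ko-labelled library holding 46 of its 132 Tnf UMIs. Without the top cell of each library it was at -0.30. CD8 T cells had -0.40 (-0.69 to -0.11) and regulatory T cells -0.04 (-0.45 to 0.37).

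How cells were put into classes moved several of these values. With Leiden clusters in place of gates, Tnf stood at -0.47 in macrophages, -0.43 in monocytes and -1.07 in cDC2, and with 1 more marker required at -0.30 in monocytes and 0.70 in cDC2. Without cells that held RNA of S100a8, S100a9, C1qa, C1qb, C1qc or Apoe, an alternative added after the data were seen, it stood at -0.34 in cDC1, -0.24 in mast cells or basophils, -0.66 in mature dendritic cells and -0.73 in cDC2. At the thinned depth it was -0.41 in mast cells or basophils and, with too few UMIs left, not measured in mature dendritic cells.

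Other genes also differed in those classes and outside them. A list of 12 immediate-early and heat shock genes, which sample handling is known to induce, was set beside them. Of the 12, 5 were at least 1.5-fold lower in cDC2 (median log2 ratio -0.43; 6.15% of all genes lower). The sign of the Tnf ratio in cDC2 changed between the alternatives above. Monocytes had 4 of the 12 lower (-0.41; 8.78% of genes), mature dendritic cells 4 (-0.18; 12.3%), macrophages 2 (-0.31; 7.57%) and cDC1 2 (-0.17; 2.85%). CD8 T cells had 3 lower (-0.42; 2.03%). CD4 T cells had 2 lower (-0.19; 5.63%), regulatory T cells 2 (-0.16; 1.94%), NK cells 2 (0.01; 10.2%) and tumour cells 2 (-0.06; 0.642%). In mast cells or basophils 2 were higher (0.23; 10.4% of genes higher) and none lower, and in neutrophils none passed either limit (-0.08). The heat shock genes Hspa1a or Hspa1b were lowest of the 12 in monocytes, macrophages, cDC1, cDC2, CD8 T, CD4 T, regulatory T, NK and tumour cells. Those lowest log2 ratios ran from -1.18 (Hspa1b, macrophages) to -2.29 (Hspa1b, cDC2), with Hspa1a at -1.25 in tumour cells. In neutrophils Hspa1b was the highest of the 12, at 0.54. The summed neutrophil markers were at 1094 (Lcn2-ko) and 932 CPM (wt) in monocytes and at 346 (Lcn2-ko) and 389 CPM (wt) in macrophages. The part of either in the Tnf values was not tested.

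In neutrophils the 10 genes had 1 member at least 1.5-fold higher, where 12.1% of 4663 genes were, and none lower, where 10.2% were. The higher one was Icam1, with 271 UMIs in 312 cells of the Lcn2-ko-labelled library and 337 in 533 cells of wt, a log2 ratio of 0.69 (0.46 to 0.93). Tnf, at 0.49 (0.34 to 0.64), and Tnfaip2, at 0.43 (0.28 to 0.57), were higher by less than 1.5-fold. The feedback genes were level, with Nfkbia at -0.12 (-0.17 to -0.07), Nfkbiz at -0.08 and Tnfaip3 at -0.04. With 1 more neutrophil marker required Icam1 stood at 0.47, Tnf at 0.12 and Tnfaip2 at 0.61, and with Leiden clusters Tnf stood at 0.79 and Icam1 at 0.88. The top cell held 30 of the 271 Icam1 UMIs (Lcn2-ko) and 16 of the 337 (wt), and without the top cell of each library the ratio was 0.59. The summed macrophage markers were at 354 (Lcn2-ko) and 348 CPM (wt) in these neutrophils.

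**Figure D3:**
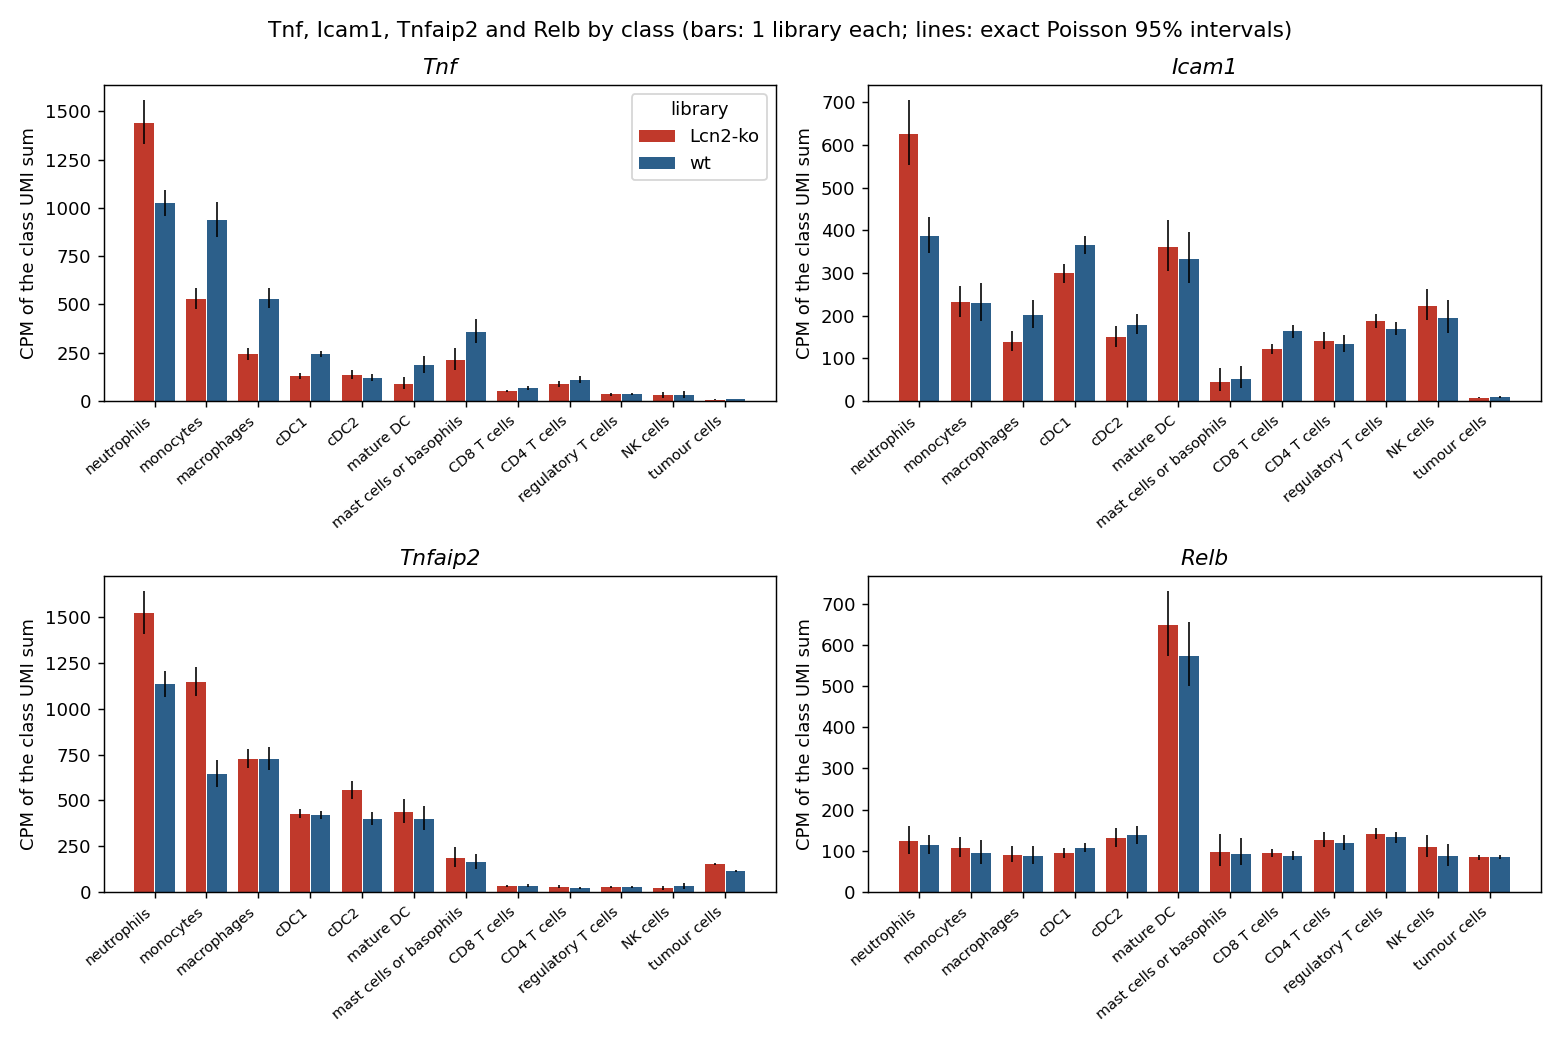
Levels of Tnf, Icam1, Tnfaip2 and Relb in CPM (y axes, from 0) in the 12 compared classes, with the Lcn2-ko-labelled library in red left of wt in blue and exact Poisson 95% intervals as lines. For Tnf the red bar is the taller one in neutrophils, 1440 CPM against 1025 in wt, and the shorter one in monocytes, 527 CPM against 937 in wt, and macrophages, 242 CPM against 529 in wt. The Relb bars show a single peak in mature DC.

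In monocytes 1 of the 10 was higher, where 12.7% of 5716 genes were, and 1 lower, where 8.78% were. The higher one was Tnfaip2, with 842 UMIs in the Lcn2-ko-labelled library and 299 in wt, a log2 ratio of 0.84 (0.65 to 1.03). The lower one was Tnf, so these TNF-related genes went opposite ways in the sums of the same class. With 1 more marker required or with Leiden clusters Tnf was lower by less than 1.5-fold there. Nfkbia, at -0.37 (-0.46 to -0.28), and Nfkbiz, at -0.39 (-0.55 to -0.23), were lower by less than 1.5-fold. The monocyte gate was a loose one, with 83 of 191 (Lcn2-ko) and 50 of 128 cells (wt) holding only the minimum of 3 markers. The cDC2 gate was looser still, with 90 of 157 (Lcn2-ko) and 99 of 178 cells (wt) at that minimum.

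In macrophages none of the 10 was higher (8.51% of 6331 genes) and Tnf was the 1 lower (7.57% of genes). Icam1 was next, with 143 UMIs in the Lcn2-ko-labelled library and 156 in wt, a log2 ratio of -0.54 (-0.88 to -0.20), and at -0.05 with Leiden clusters. Nfkbiz stood at -0.44 (-0.61 to -0.28), Nfkbia at -0.32 (-0.41 to -0.23), Bcl2a1b at -0.30 and Tnfaip3 at -0.29, while Tnfaip2 was at 0.00 (-0.16 to 0.16). The median over the 10 genes was -0.30, beside 0.01 over all genes measured there.

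In cDC1 none was higher (3.1% of 6034 genes) and Tnf was the 1 lower (2.85% of genes). Nfkbia was at -0.29 and Icam1 at -0.29 as well, with intervals off 0. In mature dendritic cells 2 were lower, where 12.3% of 4602 genes were, and none higher (9.3% of genes). They were Tnf and Tnfaip3. Tnfaip3 had 293 UMIs in the Lcn2-ko-labelled library and 461 in wt, a log2 ratio of -0.73 (-0.95 to -0.51). Of the genes that peak in mature dendritic cells, Nfkb1 stood there at 0.11, Bcl2a1b at -0.06 and Relb at 0.18 (-0.09 to 0.44). At the thinned depth Relb was at 0.66, past the 1.5-fold limit, with 849 (Lcn2-ko) and 536 CPM (wt). In mast cells or basophils 1 of 9 measured was lower, Tnf (14.8% of 4274 genes), and none higher (10.4% of genes).

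In the other 6 classes 1 gene passed the limit. In NK cells Tnfaip2 was lower at -0.62, from 13 UMIs in the Lcn2-ko-labelled library and 16 in wt, and its interval of -1.79 to 0.53 held 0 (8.06% of 6364 genes were higher and 10.2% lower). cDC2 had none past it (7.1% of 5774 genes higher, 6.15% lower), the farthest being Tnfaip2 at 0.47, Tnfaip3 at -0.45 and Bcl2a1b at -0.37. CD8 T cells had none (1.5% higher and 2.03% lower of 6399 genes), with Nfkbiz at -0.53 (-0.68 to -0.37) and Icam1 at -0.42 (-0.61 to -0.23). CD4 T cells (5.11% higher and 5.63% lower of 6553 genes) and regulatory T cells (0.948% higher and 1.94% lower of 6326 genes) had none. Tumour cells, with 7 of the 10 measured, had none either (0.507% higher and 0.642% lower of 6702 genes), with Nfkb2 at -0.44 (-0.63 to -0.25) from 386 (Lcn2-ko) and 588 UMIs (wt) and Tnfaip2 at 0.39 (0.29 to 0.49).

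Within neutrophils the libraries differed in Tnf among cells with fewer calprotectin transcripts. Cells thinned to 800 UMIs were split at the median of S100a8 and S100a9, calprotectin genes that are abundant in blood neutrophils, which was 6 UMIs. At or below it, Tnf was at 2218 CPM in 155 cells of the Lcn2-ko-labelled library and at 1379 CPM in 261 cells of wt, a log2 ratio of 0.69 (0.44 to 0.93). Icam1 was at 895 (Lcn2-ko) and 594 CPM (wt) there (0.59; 0.21 to 0.97). Above it, in 112 (Lcn2-ko) and 225 cells (wt), Tnf was at 580 (Lcn2-ko) and 667 CPM (wt) (-0.20; -0.70 to 0.28) and Icam1 at 201 (Lcn2-ko) and 172 CPM (wt) (0.22; -0.70 to 1.11), intervals that hold 0. The difference between these ratios was not tested. S100a8 and S100a9 are also among the markers of the neutrophil gate. The split was not repeated with 1 more marker required, where the Tnf ratio over all neutrophils was smaller. The share of cells above the median was 41.9% (Lcn2-ko) and 46.3% (wt). Both genes were higher in the cells at or below the median in each library, where Nfkbia was also higher, at 12387 (Lcn2-ko) and 12586 CPM (wt) against 8571 (Lcn2-ko) and 10439 CPM (wt) above it.

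Tnf UMIs were found in a minority of neutrophils, and the 10% of cells with most Tnf UMIs held 64.2% of them in the Lcn2-ko-labelled library and 64.4% in wt. These counts were not thinned, so depth per cell bears on both, and a cell without a Tnf UMI may still hold its RNA. Neutrophils with a Tnf UMI after thinning, 94 (Lcn2-ko) and 168 cells (wt), also held more of other target genes than those without, 173 (Lcn2-ko) and 318 cells (wt). Icam1 stood at 1184 CPM in cells with and 289 CPM in cells without Tnf in the Lcn2-ko-labelled library (log2 2.03; 1.48 to 2.61), and at 595 CPM in cells with and 295 CPM in cells without it in wt (1.01; 0.54 to 1.49). On the log2 scale Bcl2a1b was higher by 0.90 (Lcn2-ko) and 1.01 (wt), Nfkbia by 0.63 (Lcn2-ko) and 0.46 (wt) and Tnfaip3 by 0.58 (Lcn2-ko) and 0.47 (wt). Nfkb1 went the other way in the Lcn2-ko-labelled library, at 439 CPM in cells with and 730 CPM in cells without Tnf (-0.73; -1.35 to -0.15), but not in wt (0.21; -0.20 to 0.62). These are differences among cells of 1 library and not between genotypes.

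**Figure D4:**
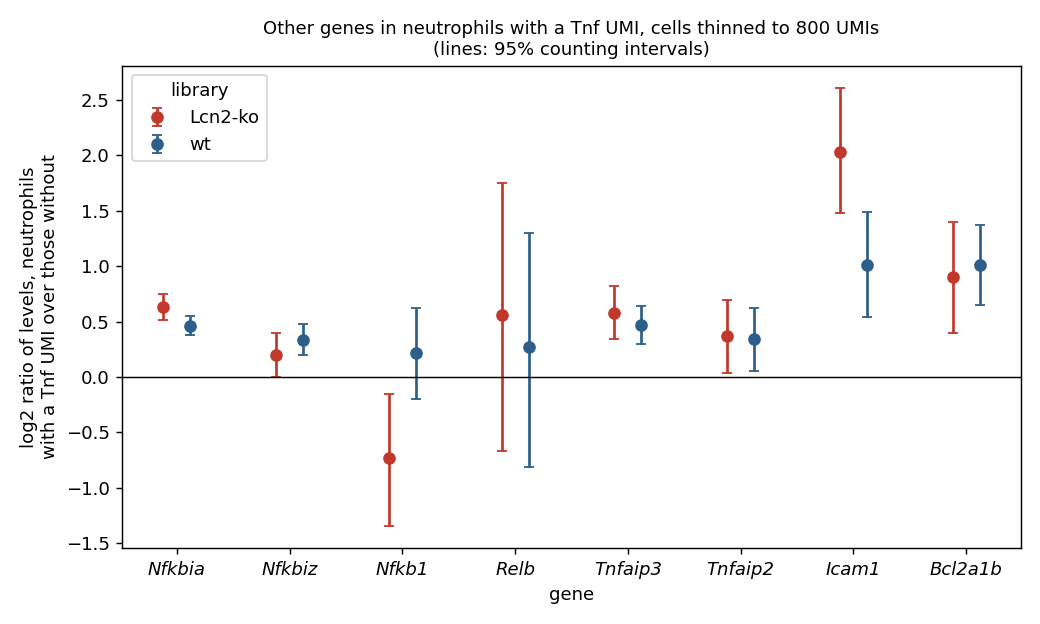
Log2 ratio of the level in neutrophils with a Tnf UMI over those without (y axis) for 8 genes (x axis), after thinning each cell to 800 UMIs, with the Lcn2-ko-labelled library in red left of wt in blue and 95% counting intervals as lines. Nfkb2 had too few UMIs to be drawn. Icam1 has the highest point, 2.03 in the Lcn2-ko-labelled library against 1.01 in wt, and Nfkb1 the only one clearly below 0.

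Of 67 other genes of the pathway, 57 were measured in neutrophils, of which 2 were at least 1.5-fold higher and 5 lower (12.1% of all genes higher and 10.2% lower). The 6 further subunit and IkB genes had none past the limit, the inhibitors none of 6, the kinases 1 of 6 higher, the receptors and adaptors 3 of 15 lower and the targets 1 higher and 2 lower of 24. The highest was Vcam1, an adhesion receptor, with 40 UMIs in the Lcn2-ko-labelled library and 39 in wt (log2 1.04; 0.37 to 1.72), and the lowest Il1r1, the interleukin-1 receptor, with 1 (Lcn2-ko) and 19 UMIs (wt) (-3.24; -8.62 to -0.59). Cxcl2, a neutrophil chemoattractant, was the most abundant, at 37704 (Lcn2-ko) and 35542 CPM (wt). The list's median was -0.03, beside 0.03 over all genes of the class.

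In macrophages 10 of 62 measured were lower and 2 higher (7.57% of all genes lower and 8.51% higher), and 7 of the 10 lower ones were among the 25 targets. Il6, the interleukin-6 gene, was lowest, with 23 UMIs in the Lcn2-ko-labelled library and 61 in wt (-1.82; -2.58 to -1.11). Bcl3, an atypical IkB gene, was highest (0.96; 0.12 to 1.86), and Il1b, the interleukin-1-beta gene, most abundant, at 5295 (Lcn2-ko) and 4977 CPM (wt). Monocytes had 7 of 62 higher and 7 lower (12.7% of genes higher and 8.78% lower), with Vcam1 at 2.64 (1.32 to 4.32) from 49 (Lcn2-ko) and 5 UMIs (wt) and Tnip2, an A20-binding inhibitor, at -1.24 from 12 (Lcn2-ko) and 18 UMIs (wt). The chemokine genes Ccl3 and Ccl4, chosen after their values were seen, went with Tnf in both classes. Ccl4 was at -1.17 in macrophages and -1.11 in monocytes, and Ccl3 at -0.95 in macrophages and -0.97 in monocytes, with intervals off 0. Most targets did not do so in monocytes, where of 24 measured 3 were higher and 2 lower, with a median of 0.06. In mast cells or basophils, where Tnf was lower, Ccl4 was higher, at 4369 (Lcn2-ko) and 1249 CPM (wt). None of the 67 other pathway genes, here or in the other classes, was followed under other gates, clusters, depths or without the top cell.

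Mature dendritic cells had 9 of 55 lower and 2 higher (12.3% of genes lower and 9.3% higher), with the chemokine gene Cxcl1 lowest at 57 UMIs in the Lcn2-ko-labelled library against 247 in wt (-2.19; -2.63 to -1.77). cDC1 had 6 of 58 higher and 2 lower (3.1% of genes higher and 2.85% lower), and cDC2 6 of 60 higher and 5 lower (7.1% of genes higher and 6.15% lower). Mast cells or basophils had 10 of 36 higher and 5 lower (10.4% of genes higher and 14.8% lower). In the mast cell gate Ptgs2, the inducible cyclooxygenase gene, was highest at 304 (Lcn2-ko) and 58 UMIs (wt) (2.83; 2.42 to 3.26), and Ccl4 was at 4369 (Lcn2-ko) and 1249 CPM (wt). cDC2 held both extremes of the dendritic cells, Il6 at 2.60 (1.81 to 3.48) from 77 (Lcn2-ko) and 16 UMIs (wt) and Il12b at -3.04 (-4.21 to -2.05) from 9 (Lcn2-ko) and 93 UMIs (wt). CD8 T cells had 0 of 53 higher and 1 lower (1.5% of genes higher and 2.03% lower), CD4 T cells 6 of 55 higher and 4 lower (5.11% higher and 5.63% lower) and regulatory T cells 1 of 52 higher and 0 lower (0.948% higher and 1.94% lower). NK cells had 5 of 52 higher and 9 lower (8.06% of genes higher and 10.2% lower), and tumour cells 2 of 51 higher and 1 lower (0.507% higher and 0.642% lower).

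Over 24 points, which are 12 classes in 2 libraries and share library and depth, the nearest neighbours of each gene were found by Pearson's r of log2(CPM + 10) among 6452 genes. Tnf lay nearest to Plek (0.917), Ccl4 (0.911) and Ccl6 (0.903), and Tnfaip2 to Nfe2l2 (0.965), Zfp36 (0.936) and Ftl1 (0.935). Nfkbia lay nearest to Tgif1 (0.914), Rnd1 (0.901) and Ier5 (0.9005), Nfkbiz to Rab20 (0.912), Rab44 and Por, and Tnfaip3 to Nktr (0.919), Ubn1 and Rsrc2. Icam1 lay nearest to Rab8b (0.93), Lncpint and Gmip, and Bcl2a1b to its near-copy Bcl2a1d (0.986), Cd80 (0.94) and Pmaip1 (0.914). Relb lay nearest to Gm13546 (0.948), Slco5a1 and Slc27a3, Nfkb2 to Serinc5 (0.866), Hsf2 and Ppp4r2, and Nfkb1 to Ripk2 (0.864), Samsn1 and Gmeb2. None of the 10 had another of the 10 among its nearest 3. Among themselves the closest pairs were Icam1 with Bcl2a1b (0.829), Tnfaip2 with Tnf (0.746) and Nfkb2 with Relb (0.744), and the farthest was Nfkb2 with Tnfaip2 (-0.09).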

How the data were processed

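The authors deposited counts, in whole UMIs for each gene and barcode, without normalisation as the files show. Cell Ranger and mm10 are named in the submitters' processing notes, and versions and settings are not given in the sources used here. Groups came from the genotype label.

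Barcodes under 200 genes (46 in the Lcn2-ko-labelled library and 82 in wt), over 20% mitochondrial UMIs (241 Lcn2-ko, 262 wt) or in the top 4% of Scrublet scores (311 Lcn2-ko, 311 wt; scanpy 1.11.5, expected rate 0.06) were left out. A cell entered a class with UMIs of at least 3 markers and 40% of its list. T cells were split by Cd8a or Cd8b1, Foxp3 and Cd4, NK cells lacked Cd3e and tumour cells Ptprc. Cells of 2 or more lineages (898 in the Lcn2-ko-labelled library and 776 in wt), no class (728 Lcn2-ko, 837 wt), ties (8 Lcn2-ko, 4 wt), other T cells (543 Lcn2-ko, 547 wt) and plasmacytoid cells (9 Lcn2-ko, 1 wt) were not compared.

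UMIs were summed per class and library. The 95% intervals are exact Poisson for sums, Clopper-Pearson for shares and exact conditional binomial for ratios. The ratio step was tested on simulated data. Alternatives varied cell filters, depth (800 UMIs per cell, leaving out 45 and 47 shallower neutrophils), weights, scaling, gates, clusters and limits.

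Named beyond the 10 genes were the highest, lowest and most abundant other pathway genes per class and the 3 nearest genes, among those with at least 50 CPM. Ccl3 and Ccl4 in macrophages and monocytes were added after their values were seen. The members and lists were chosen with earlier results of these data known. Positions are from GENCODE on mm10. Python 3.11.15, numpy 2.4.6 and scipy 1.17.1 were used.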

Additional observations from a re-analysis of the deposited data

Results flagged for a closer look

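Tnf went opposite ways in neutrophils and macrophages, at a log2 ratio of Lcn2-ko over wt of 0.49 and -1.13, with intervals off 0. With 1 more marker required Tnf was at 0.12 in neutrophils (below the size used here to speak of opposite ways), and with Leiden clusters at -0.47 in macrophages. Icam1 did the same, at 0.69 in neutrophils and -0.54 in macrophages, but with Leiden clusters it was at -0.05 in macrophages, and at the thinned depth at -0.22, both also below that size. The difference between the classes was not tested, since there was 1 library per label.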

How the results depend on the processing

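Against 2 pairs of a gene and a class higher and 7 lower with the Lcn2-ko label, the higher count was 7 at the thinned depth, 4 with 1 more marker and 5 with Leiden clusters, and the 2-fold limit left 0 higher and 2 lower. Under the other settings it was 2 or 3, and the lower count was 5 to 8 at the 1.5-fold limit. Of the 9 pairs past the limit, 8 or 9 stayed past it under the remaining filters, weights and scalings, and 6 under each of thinning, 1 more marker, Leiden clusters, and the leaving out of cells with neutrophil or macrophage RNA. Tnfaip2 in NK cells, from 13 (Lcn2-ko) and 16 UMIs (wt), was lost in 7 settings, and none of the 9 changed direction. The cause was not tested. The shifts of the class median lay between -0.06 and 0.03. No NK class was found among the Leiden clusters. No paired analysis was possible because each genotype had 1 library. Depth limits Nfkb2, with 10 to 588 UMIs per class. Of the pairs, 4 were not measured. Bcl2a1b in mast cells or basophils, with 1 (Lcn2-ko) and 4 UMIs (wt), missed the UMI minimum and the CPM minimum. Tnf, Icam1 and Bcl2a1b in tumour cells passed the UMI minimum. They stood below the CPM minimum in each library, at 6.99 to 10.4 CPM, so a low level and not depth left them out.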
